A study of Bos indicus x Bos taurus with 17 samples.

Results

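The 6 actin genes (ACTA1, ACTC1, ACTA2, ACTG2, ACTB and ACTG1) and the 4 tropomyosin genes (TPM1, TPM2, TPM3 and TPM4) were chosen by symbol, and all 10 are among the 21048 genes listed in the count tables. They were followed in skeletal muscle and liver of 6 bovine F1 fetuses at about day 105, from Nelore (Bos indicus) and Holstein (Bos taurus) parents. Control-AI fetuses, conceived by artificial insemination, were the 2 labelled 2 and 4. ART-Normal fetuses, produced in vitro and of a body weight similar to controls, were the 4 labelled 1 to 4, of which the labels hold the 4th and the list of fetuses in the study's methods does not. Each fetus gave 1 library per tissue, which makes 12 libraries of poly(A) RNA read as pairs of 150 bp. All values come from reads counted per gene, so the fiber or cell that made a transcript is not known, and in bulk tissue fewer cells of a type and less RNA per cell cannot be told apart.

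Actin is the globular protein that assembles into thin filaments. Vertebrates make alpha-actins in striated muscle (ACTA1 in skeletal muscle, ACTC1 in the heart), an alpha- and a gamma-actin in smooth muscle (ACTA2 and ACTG2), and beta- and gamma-actin (ACTB and ACTG1) in the cytoplasm of nearly all cells. ACTC1 is also made in developing skeletal muscle before ACTA1 becomes the leading form. Tropomyosins are rod-shaped dimers that lie along actin filaments. In striated muscle they set, with the troponins, whether myosin can reach actin. TPM1 and TPM2 give the alpha and beta chains of muscle, TPM3 gives the chain of slow fibers, and TPM1, TPM3 and TPM4 also give cytoplasmic forms by other promoters and splicing, which gene counts do not separate.

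The 10 genes lie on 9 chromosomes of the assembly ARS-UCD1.2. ACTA1 (gene 281592) lies on chromosome 28 from 1400443 to 1403202, ACTC1 (533219) on chromosome 10 from 30288631 to 30293908, and TPM1 (281544) on chromosome 10 from 46993263 to 47022966, all on the minus strand. The other actins are ACTA2 (515610) on chromosome 26 from 10626812 to 10679430, ACTG2 (281595) on chromosome 11 from 10737086 to 10761240, ACTB (280979) on chromosome 25 from 38799230 to 38802643 and ACTG1 (404122) on chromosome 19 from 51259442 to 51262291. The other tropomyosins are TPM2 (497015) on chromosome 8 from 59856499 to 59864046, TPM3 (497019) on chromosome 3 from 16318497 to 16346046 and TPM4 (535277) on chromosome 7 from 6898898 to 6924164. Listed spans, which hold introns, run from 2760 bp in ACTA1 to 52619 bp in ACTA2. ACTA2 is the only member that overlaps another listed gene: FAS, on the plus strand, shares 789 bp with it. FAS was at 4.79 to 6.68 CPM in muscle and 0.421 to 0.831 CPM in liver. Actin coding sequences are alike, and how reads that match more than 1 of them were counted is not given in the sources used here, so the split between actins is uncertain to that extent.

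Total counts were 12433300 to 23578362 per muscle library and 18454088 to 43339598 per liver library. Levels are given as CPM, the counts scaled to library size with TMM factors over all 12 libraries. The tissue labels were checked against marker genes: all 10 skeletal muscle markers were higher in muscle and all 10 hepatocyte markers were higher in liver. Control-AI 2 stood apart in both tissues and had the lowest total in each. Its liver library had 73727 CPM of albumin (ALB) against 6833 to 12904 CPM in the other livers. The summed skeletal muscle markers in its liver were 44.5 CPM against 8.44 to 11.6 CPM in the others, and the summed hepatocyte markers in its muscle were 248 CPM against 24.7 to 49.9 CPM. Its liver also held 24831 CPM of erythroid markers against 6011 to 6961 CPM. Results are therefore given with and without Control-AI 2.

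The actins and tropomyosins differed widely between the tissues. In muscle the most reads came from ACTC1, TPM2 and ACTA1. In liver they came from ACTB and ACTG1, with ACTA1 and ACTC1 close to 0. Between 0.543% and 0.898% of all reads of a muscle library fell in the 6 actins, against 0.195% to 0.244% in liver. The 4 tropomyosins held 0.353% to 0.445% of muscle reads and 0.0346% to 0.0696% of liver reads.

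**Figure D1:**
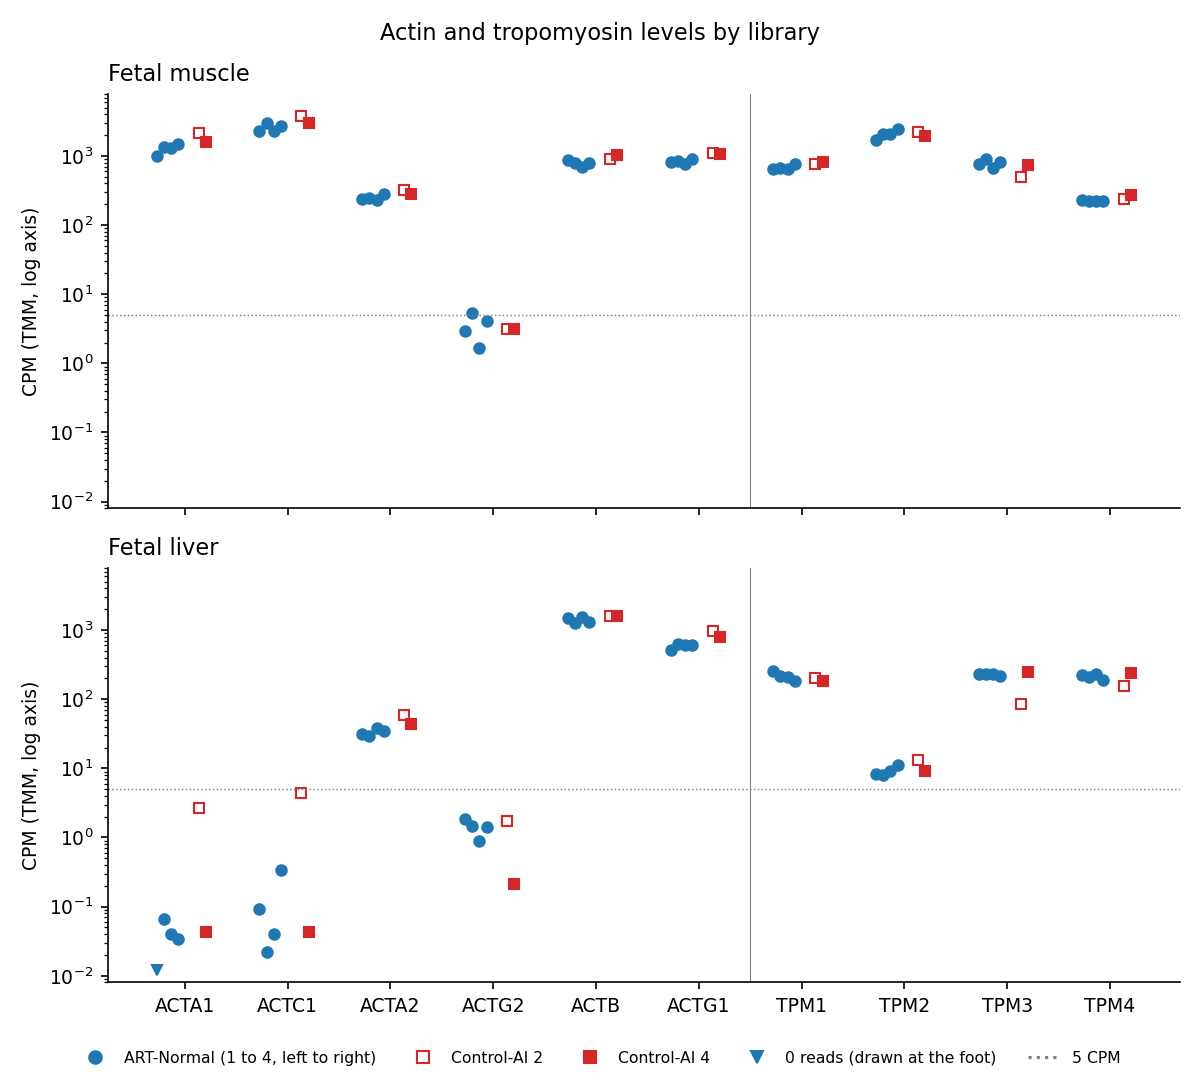
CPM of each actin and tropomyosin on a log axis in fetal muscle (top) and liver (bottom), 1 point per library. ART-Normal 1 to 4 are circles from left to right, Control-AI 2 is an open square and Control-AI 4 a filled square. The downward triangle is ACTA1 at 0 reads in ART-Normal liver 1, and the dotted line is the 5 CPM used as the filter. ACTA1, ACTC1 and TPM2 stand far higher in muscle, ACTB stands higher in liver, and ACTA1 and ACTC1 reach 2.64 and 4.35 CPM in liver only in Control-AI 2.

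ACTA1, skeletal alpha-actin, had 998, 1368, 1317 and 1508 CPM in muscle of ART-Normal 1 to 4, against 2122 (Control-AI 2) and 1580 CPM (Control-AI 4). All ART-Normal values lay below both controls, with ART-Normal 1 the lowest and Control-AI 2 the highest. ACTC1, cardiac alpha-actin, had 2281, 2982, 2310 and 2723 CPM in ART-Normal muscle and 3782 and 2955 CPM in the controls. The groups overlapped for ACTC1, since ART-Normal 2 lay above Control-AI 4. Read counts were large enough (24712 ACTA1 reads in ART-Normal muscle 1, for example) that the exact Poisson 95% interval of that value, 1042 to 1068 CPM before TMM scaling, was narrow beside the spread between fetuses. That interval covers counting error only.

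In liver, ACTA1 had 0, 3, 1 and 1 reads in ART-Normal 1 to 4 and 1 read in Control-AI 4, and it had 37 reads, or 2.64 CPM, in Control-AI 2. With a chosen value of 3 reads, or 0.138 CPM, in place of the 0 in ART-Normal 1, the muscle level of that fetus was 7208-fold higher. The exact 95% interval of that 0 ran up to 0.164 CPM before TMM scaling, so the ratio could be lower. ACTC1 had 2, 1, 1 and 10 reads in liver of ART-Normal 1 to 4, 1 read in Control-AI 4 and 61 reads, or 4.35 CPM, in Control-AI 2. Both alpha-actins were thus near the floor in 5 livers and above it in the library that also held the highest skeletal muscle markers. Muscle markers in that liver moved with these 2 genes, and their part in the values was not tested. Summed over the 5 fetuses without Control-AI 2, ACTA1 had 148168 reads in muscle and 6 in liver, a ratio per library read of 33615 (95% exact interval 15444 to 91601). ACTC1 had 289545 and 15 reads, a ratio of 26276 (15931 to 46948). Both intervals cover counting error of the summed reads only, and leave out the spread between fetuses. Fetus by fetus without Control-AI 2, the ratio of CPM ran from 8065 to 134544 for ACTC1. For ACTA1 it ran from 20568 to 44679 where the liver had reads. In Control-AI 2 alone the ratios of CPM were 805 for ACTA1 and 870 for ACTC1.

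ACTC1 gave more reads than ACTA1 in every muscle library. Its share of the reads of both genes was 69.6%, 68.6%, 63.7% and 64.4% in ART-Normal 1 to 4, and 64.1% and 65.2% in Control-AI 2 and 4. ART-Normal 1 and 2 lay above both controls, while ART-Normal 3 lay below both and ART-Normal 4 between them, so the share did not separate the groups (66.5% ± 2.95 in ART-Normal, SD, n = 4). Divided by listed gene span, the ratio of ACTC1 to ACTA1 was 1.2, 1.14, 0.917 and 0.944 in ART-Normal and 0.932 and 0.978 in the controls. On the scale per span the 2 alpha-actins were nearly level, and which one led differed between fetuses. That result depends on the divisor, since the listed spans, 2760 bp for ACTA1 and 5278 bp for ACTC1, hold introns. In reads the ratio of ACTC1 to ACTA1 was 1.75 to 2.29 in ART-Normal and 1.78 and 1.87 in the controls. Transcript lengths were not used, so which gene made more transcripts is not known. Heart muscle markers beside ACTC1 were read in the same libraries: natriuretic peptide B (NPPB) had 0 reads in every muscle library, natriuretic peptide A (NPPA) reached at most 0.0439 CPM and the cardiac factor NKX2-5 at most 0.0878 CPM. MYL7, an atrial myosin light chain, was at 150 to 290 CPM in muscle. MYH6, also on that list, was at 13.8, 13.9, 18.6 and 12.6 CPM in ART-Normal muscle and at 39.2 and 18.0 CPM in the controls. TNNI3, the last on it, was at 0.606 to 2.00 CPM in muscle. The 6 heart markers summed to 167 to 305 CPM in ART-Normal muscle, to 211 CPM in muscle of Control-AI 2 and to 170 CPM in that of Control-AI 4.

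**Figure D2:**
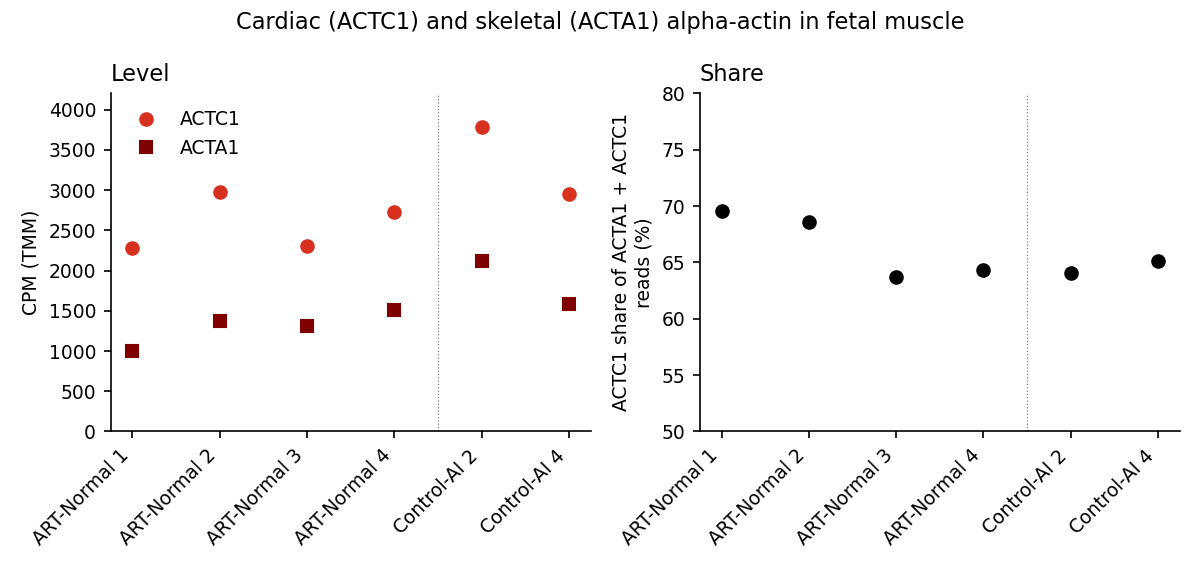
Left, CPM of ACTC1 (circles) and ACTA1 (squares) in each fetal muscle library. Right, ACTC1 reads as a percentage of ACTA1 plus ACTC1 reads, on an axis from 50% to 80%. ACTC1 lies above ACTA1 in all 6 fetuses, and its share runs from 63.7% in ART-Normal 3 to 69.6% in ART-Normal 1, with both controls inside that range.

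ACTA2, smooth muscle alpha-actin, which pericytes, myofibroblasts and activated stellate cells also make, had 237, 247, 232 and 284 CPM in ART-Normal muscle and 317 and 282 CPM in the controls. In liver it had 31.9, 29.3, 38.1 and 35.2 CPM in ART-Normal, against 59.3 and 43.2 CPM in the controls. The liver groups did not overlap, and the muscle groups did, through ART-Normal 4. ACTG2, the gamma-actin of enteric smooth muscle, gave the fewest actin reads in muscle, with 2.95, 5.40, 1.67 and 4.10 CPM in ART-Normal, against 3.17 and 3.14 CPM in the controls. It had 5 to 66 reads per liver library, from 0.214 CPM in Control-AI 4 to 1.85 CPM in ART-Normal 1. ACTG2 did not pass the filter of 5 CPM in every library of a group, so it was not tested in the fits below.

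ACTB, cytoplasmic beta-actin, had 1476, 1266, 1555 and 1329 CPM in ART-Normal liver and 1584 and 1625 CPM in the controls. In muscle it had 867, 784, 695 and 784 CPM in ART-Normal, against 918 and 1022 CPM in the controls. ACTB was the only member lower in muscle than in liver in all 6 fetuses. ACTG1, cytoplasmic gamma-actin, had 515, 626, 616 and 614 CPM in ART-Normal liver and 962 and 795 CPM in the controls, and 816, 856, 770 and 912 CPM in ART-Normal muscle against 1093 and 1051 CPM. For both cytoplasmic actins, and in both tissues, all ART-Normal values lay below both controls in TMM-scaled CPM. For ACTB in liver this order depended on the TMM factor of Control-AI 2, which was 0.761. By library size alone ACTB had 1205 CPM in that liver, against 1421, 1317, 1517 and 1354 CPM in ART-Normal 1 to 4.

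The shares of reads within the actin family followed the tissue. The striated alpha-actins ACTA1 and ACTC1 held 63.0% to 71.7% of actin reads in muscle and 0.00347% to 0.267% in liver, the highest liver share being that of Control-AI 2. The cytoplasmic actins ACTB and ACTG1 held 24.4% to 32.4% of actin reads in muscle and 97.4% to 98.4% in liver. Averaged over the 6 muscle libraries, ACTC1 held 44.6% ± 1.87, ACTA1 23.1% ± 2.36, ACTG1 14.5% ± 0.910, ACTB 13.5% ± 1.96 and ACTA2 4.23% ± 0.307 of actin reads (SD, n = 6). In liver, ACTB held 67.1% ± 4.23, ACTG1 31.0% ± 3.96 and ACTA2 1.77% ± 0.263 (SD, n = 6). With 15 possible splits of 6 fetuses into 4 and 2, the smallest p of an exact permutation test of a share is 0.0667, and no such test is given.

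Within the cytoplasmic pair the balance differed between the tissues. ACTB held 72.9%, 65.8%, 70.4% and 67.1% of actin reads in ART-Normal liver and 60.6% and 65.9% in the controls, with ART-Normal 2 below Control-AI 4. Of the reads of ACTB and ACTG1 together, ACTB held 66.9% to 74.1% in ART-Normal liver and 62.2% and 67.1% in the controls. In muscle it held 46.2% to 51.5% in ART-Normal and 45.6% and 49.3% in the controls. The tissues did not overlap in this share, and the conception groups overlapped in both.

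**Figure D3:**
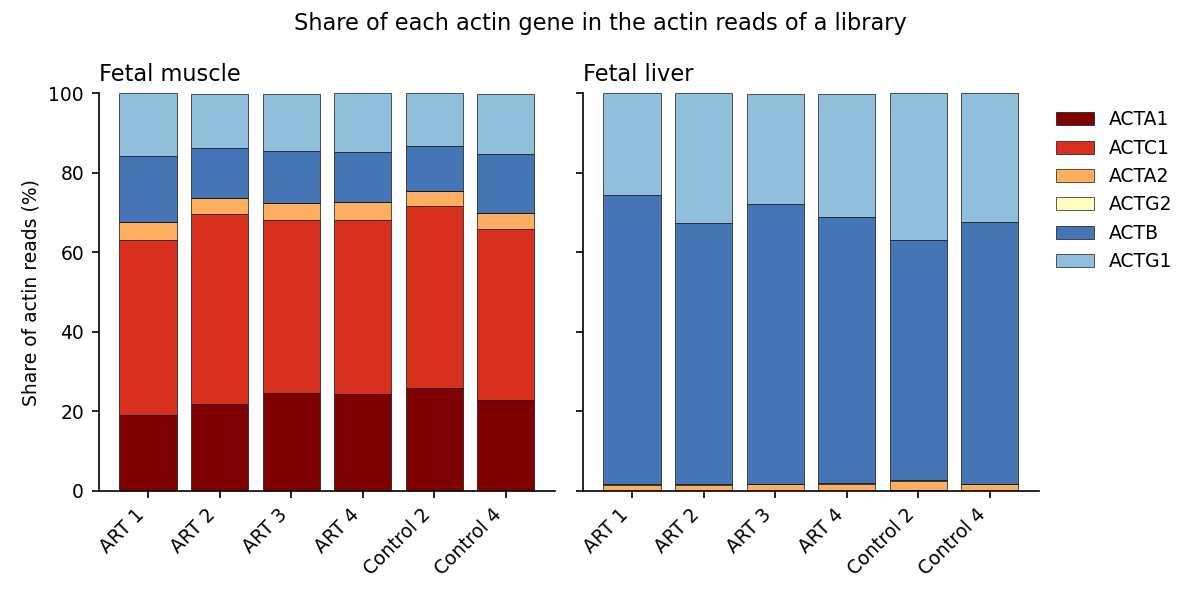
Share of each actin in the actin reads of every library, in percent, for muscle (left) and liver (right), with ART-Normal 1 to 4 and Control-AI 2 and 4 as bars. Muscle bars hold mostly ACTC1 and ACTA1 (63.0% to 71.7% together), and liver bars hold 97.4% or more of ACTB and ACTG1. ACTG2 is too small to be seen.

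TPM2, the beta chain of muscle, was the leading tropomyosin of muscle and nearly lacking in liver. It had 1682, 2090, 2055 and 2492 CPM in ART-Normal muscle and 2183 and 1952 CPM in the controls, so that the groups overlapped. In liver it had 8.31, 8.02, 9.19 and 11.3 CPM in ART-Normal, against 13.1 and 9.28 CPM in the controls. The ratio of muscle to liver was 167 in Control-AI 2 and 202 to 260 in the other 5 fetuses. Of the reads of TPM1 and TPM2 together, TPM2 held 70.5% to 76.8% in the muscle libraries and 3.11% to 6.15% in the liver libraries.

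TPM1, the alpha chain, had 655, 678, 641 and 754 CPM in ART-Normal muscle and 776 and 816 CPM in the controls, with no overlap. In liver it had 259, 215, 211 and 184 CPM in ART-Normal, against 200 and 185 CPM in the controls, which overlapped. TPM4, a cytoplasmic tropomyosin, had 231, 223, 222 and 224 CPM in ART-Normal muscle and 240 and 277 CPM in the controls. Its ART-Normal muscle values were the closest together of all 10 members, with a coefficient of variation of 1.89% (n = 4), and all lay below both controls. In liver TPM4 had 223, 209, 234 and 192 CPM in ART-Normal, against 156 (Control-AI 2) and 242 CPM (Control-AI 4). The controls thus lay on either side of the ART-Normal livers.

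TPM3, the slow-fiber and cytoplasmic tropomyosin, had 772, 917, 669 and 827 CPM in ART-Normal muscle, against 490 (Control-AI 2) and 743 CPM (Control-AI 4). In liver it had 233, 234, 229 and 217 CPM in ART-Normal, against 84.9 (Control-AI 2) and 244 CPM (Control-AI 4). In both tissues Control-AI 2 alone was low, while Control-AI 4 lay within the ART-Normal range in muscle and just above it in liver. Of the reads of TPM3 and TPM4 together, TPM3 held 75.1% to 80.5% in ART-Normal muscle against 67.1% and 72.8% in the controls, a share in which the groups did not overlap. In liver it held 49.5% to 53.0% against 35.2% and 50.2%, which overlapped.

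In muscle, TPM2 held 55.0% ± 3.67 of tropomyosin reads, TPM3 19.6% ± 3.69, TPM1 19.2% ± 1.84 and TPM4 6.30% ± 0.772 (SD, n = 6). In liver, TPM1 held 33.5% ± 5.89, TPM4 33.0% ± 1.95, TPM3 31.9% ± 6.63 and TPM2 1.64% ± 0.662 (SD, n = 6). TPM1, TPM3 and TPM4 thus shared the liver reads almost evenly, except in Control-AI 2. In that liver TPM1 held 44.1%, TPM4 34.4% and TPM3 18.7%, whereas TPM3 held 32.3% to 35.9% in the other 5. In muscle the TPM1 share was 17.4% to 19.6% in ART-Normal and 21.0% and 21.5% in the controls, with no overlap.

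**Figure D4:**
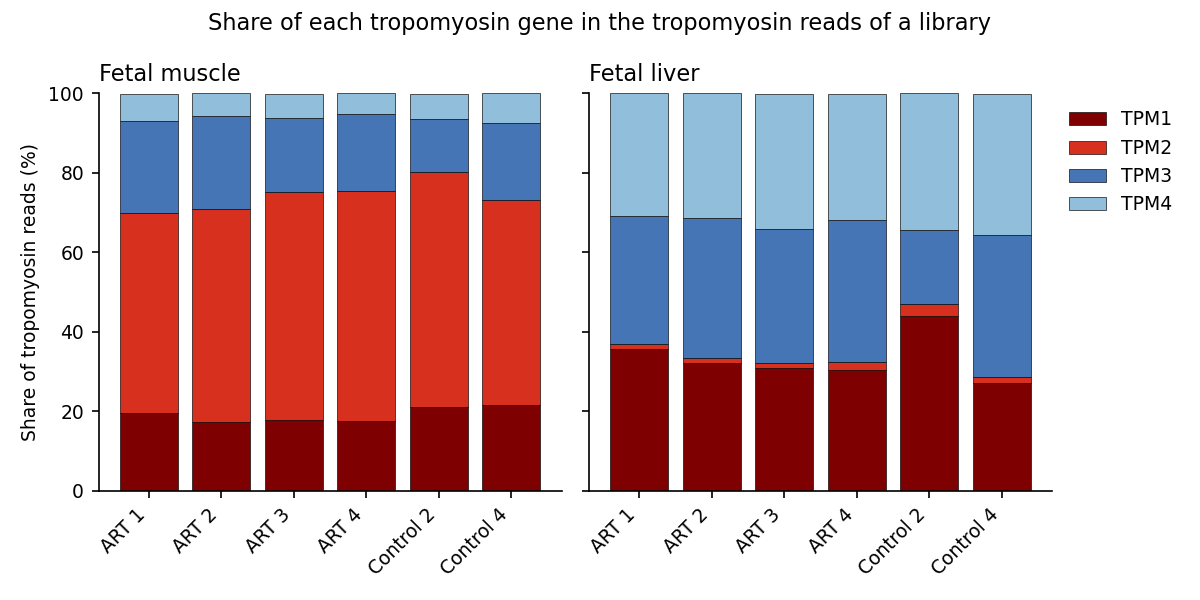
Share of each tropomyosin in the tropomyosin reads of every library, in percent, for muscle (left) and liver (right), with ART-Normal 1 to 4 and Control-AI 2 and 4 as bars. TPM2 holds 50.4% to 59.2% in muscle and 1.15% to 2.88% in liver, and TPM3 is smallest in Control-AI 2 in both tissues (13.3% and 18.7%).

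Levels of different genes can be compared only per length, and the length at hand is the listed span, which lowers genes with long introns. In CPM per kb of span, ACTC1 (mean 538, range 432 to 717 over 6 muscle libraries) and ACTA1 (537, range 362 to 769) led in muscle and did not differ beyond their spread. ACTG1 (mean 322), TPM2 (275) and ACTB (248) followed with overlapping ranges of CPM per kb. TPM3 (mean 26.7) and TPM1 (24.2) also overlapped, and TPM4 (9.34), ACTA2 (5.07) and ACTG2 (0.141) came last in CPM per kb without overlap. In liver ACTB (mean 431 CPM per kb, range 371 to 476) stood above ACTG1 (241, range 181 to 338) without overlap. TPM4 (8.28), TPM3 (7.51) and TPM1 (7.04) overlapped on that scale, and TPM2 was at 1.31 and ACTA2 at 0.751 CPM per kb.

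Muscle and liver were compared in a fit over all 12 libraries with edgeR's quasi-likelihood test and Benjamini-Hochberg adjustment over 12923 genes. Of these, 40% were higher in muscle and 40% lower at an adjusted p of 0.05. Among the 9 members tested, 7 were higher in muscle, ACTB was lower, and TPM4 did not pass. ACTA1 and ACTC1 passed with adjusted p-values of 1e-09 and 1.07e-08 by edgeR, and their fitted fold changes, which depend on liver reads near 0, are not given. TPM2 was higher by a log2 fold change of 7.67 (SE 0.23, adjusted p = 6.88e-12 by edgeR). ACTA2 was higher by 2.72 on the log2 scale (SE 0.12, adjusted p = 1.58e-10), TPM3 by 1.85 (SE 0.23, adjusted p = 5.76e-06) and TPM1 by 1.84 (SE 0.11, adjusted p = 4.88e-09). ACTG1 was higher by only 0.39 (SE 0.11, adjusted p = 0.00686), and ACTB was lower, at -0.79 (SE 0.12, adjusted p = 4.18e-05).

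These directions held within the fetuses. The ratio of muscle to liver CPM was 5.35 to 8.43 for ACTA2, 2.53 to 4.41 for TPM1, 2.92 to 5.77 for TPM3 and 1.14 to 1.59 for ACTG1, all above 1 in 6 of 6 fetuses. For ACTB it was 0.447 to 0.629. TPM4 had ratios of 0.949 to 1.54, above 1 in 5 of 6 fetuses, and a log2 fold change of 0.22 (SE 0.11, adjusted p = 0.0923 by edgeR). With the fetus as a block, which pairs the 2 tissues of each animal, TPM4 passed at 0.23 (SE 0.081, adjusted p = 0.0255). It was at 0.15 (SE 0.11, adjusted p = 0.222) without Control-AI 2, and passed at 0.33 (adjusted p = 0.0135) without Control-AI 4, fits in which 1 control fetus remained and the spread came from ART-Normal. ACTG2, fitted with no filter on low counts, was higher in muscle by 1.55 (SE 0.46, adjusted p = 0.00813).

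ART-Normal was compared with Control-AI within each tissue, to ask whether conception in vitro goes with a difference in fetuses of normal weight. A negative value is a lower level in ART-Normal. No member passed an adjusted p of 0.05 in muscle or in liver. In muscle 1 of 11695 genes did (0.00855%), and in liver 0 of 11304 (0%), where 948 genes (8.39%) had an unadjusted p under 0.05 and other tests called 56 (DESeq2's Wald test) or 89 genes (edgeR's likelihood ratio test). In muscle 9.19% of genes had an unadjusted p under 0.05, and 3 of the 9 members tested did.

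In muscle the 5 actins tested had negative log2 fold changes by edgeR. ACTA1 was at -0.53 (SE 0.20, adjusted p = 0.456), ACTC1 at -0.41 (SE 0.18, adjusted p = 0.541) and ACTG1 at -0.37 (SE 0.15, adjusted p = 0.477), which are the 3 members with an unadjusted p under 0.05 (0.0225, 0.0496 and 0.0271). ACTB was at -0.33 (SE 0.15) and ACTA2 at -0.28 (SE 0.14). Among tropomyosins, TPM1 was at -0.24 (SE 0.14), TPM4 at -0.22 (SE 0.12), TPM2 at -0.01 (SE 0.18) and TPM3 at 0.36 (SE 0.20), with adjusted p-values from 0.640 to 0.992. The median over the 5 actins was -0.37 and over the 4 tropomyosins -0.11, beside 0.00069 over all genes tested. Without Control-AI 2, ACTA1 was at -0.29 (SE 0.21), ACTC1 at -0.21 (SE 0.20) and TPM3 at 0.09 (SE 0.20), while ACTB was at -0.40 (SE 0.18) and ACTG1 at -0.34 (SE 0.18). Without Control-AI 4, ACTA1 (-0.74, adjusted p = 0.0283) and TPM3 (0.68, adjusted p = 0.0497) passed the threshold. The only control was then Control-AI 2, the library that stands apart. With either control left out, the spread comes from the ART-Normal libraries alone, and the lone control is assumed to vary as they do.

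In muscle 5 of the 9 members tested had all ART-Normal values below both controls: ACTA1, ACTB, ACTG1, TPM1 and TPM4. None lay above both. Over all genes tested in muscle 6.37% lay below both controls and 9.12% above. These 5 members necessarily lay below Control-AI 4 alone as well, which adds nothing to that count. With Control-AI 2 left out, an alternative added after the data were seen, no further member tested lay below and none above. Over all genes 19.9% then lay below and 20.5% above. Summed over the family, the 6 actins had 5203 to 6242 CPM in ART-Normal muscle, against 8235 (Control-AI 2) and 6893 CPM (Control-AI 4). The 4 tropomyosins had 3339 to 4297 CPM in ART-Normal muscle and 3689 and 3788 CPM in the controls.

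Markers of other cell types in muscle were set beside these values, and their part in them was not tested. Summed skeletal muscle markers were 22091 to 33032 CPM in ART-Normal, against 26694 (Control-AI 2) and 26701 CPM (Control-AI 4), and the lowest sum was that of ART-Normal 1, which also had the lowest ACTA1, ACTC1 and TPM2. The 10 skeletal muscle markers had a median log2 fold change of -0.0053. Summed smooth muscle markers were 370 to 499 CPM in ART-Normal, against 583 and 462 CPM in the controls. Of 7 smooth muscle markers tested, 6 had negative values, 3 had all ART-Normal below both controls, and the median was -0.43. CNN1, calponin of smooth muscle, had 20.8, 18.1, 18.5 and 17.2 CPM in ART-Normal muscle and 30.3 and 34.6 CPM in the controls. The 7 fibroblast and stellate markers had a median of -0.25, all were negative, and 4 had all ART-Normal below both controls. Of all genes tested in muscle, 6.37% lay below both controls. No gene of these 3 lists passed the threshold of edgeR's test, and 5 had an unadjusted p under 0.05. These were 0 of 10 skeletal muscle, 4 of 7 smooth muscle and 1 of 7 fibroblast and stellate markers tested. Of all genes tested in muscle 9.19% did.

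In liver the 7 members tested were ACTA2, ACTB, ACTG1 and the 4 tropomyosins. ACTA2 had a log2 fold change of -0.62 (SE 0.17, adjusted p = 0.467 by edgeR, unadjusted 0.00506), ACTG1 of -0.59 (SE 0.16, adjusted p = 0.467, unadjusted 0.00558) and ACTB of -0.21 (SE 0.17, adjusted p = 0.674). TPM3 was at 0.46 (SE 0.32), TPM1 at 0.16 (SE 0.16), TPM4 at 0.09 (SE 0.18) and TPM2 at -0.30 (SE 0.23), with adjusted p-values from 0.632 to 0.868. The median over the 3 actins was -0.59 and over the 4 tropomyosins 0.12, beside 0.0075 over all genes tested. Without Control-AI 2, ACTA2 was at -0.36 (SE 0.20), ACTG1 at -0.42 (SE 0.18), ACTB at -0.20 (SE 0.20), and TPM3 and TPM4 changed sign to -0.09 (SE 0.16) and -0.17 (SE 0.17). Without Control-AI 4, ACTA2 (-0.85, adjusted p = 0.0201), ACTG1 (-0.73, adjusted p = 0.0361) and TPM3 (1.40, adjusted p = 0.000582) passed, again with Control-AI 2 as the lone control and a spread taken from ART-Normal alone.

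In liver 3 of the 7 members tested, ACTA2, ACTB and ACTG1, had all ART-Normal values below both controls, and none lay above both. For ACTB this did not hold by library size alone, where Control-AI 2 lay below every ART-Normal liver. Over all genes tested in liver 8.7% lay below both and 9.84% above. Against Control-AI 4 alone the 3 actins had to lie below, TPM3 and TPM4 also did, and none of the 7 lay above. Of all genes, 18.4% lay below Control-AI 4 and 18.1% above. The summed fibroblast and stellate markers of liver were 902 to 1149 CPM in ART-Normal, against 1329 (Control-AI 2) and 684 CPM (Control-AI 4). The summed smooth muscle markers were 249 to 281 CPM in ART-Normal, against 314 (Control-AI 2) and 268 CPM (Control-AI 4), and MYLK, the myosin light chain kinase, was the most abundant of them at 128 to 167 CPM. Of 6 smooth muscle markers tested in liver, 5 had negative log2 fold changes, with a median of -0.19. TAGLN, the actin-binding protein transgelin, had all ART-Normal values below both controls, at 5.12, 5.65, 7.70 and 6.92 CPM against 10.2 (Control-AI 2) and 8.73 CPM (Control-AI 4). Its log2 fold change was -0.59 (SE 0.23, adjusted p = 0.561 by edgeR, unadjusted 0.0299). MYH11, the myosin heavy chain of smooth muscle, had 20.2, 16.9, 19.5 and 27.3 CPM against 56.1 (Control-AI 2) and 16.2 CPM (Control-AI 4), a log2 fold change of -0.80 (SE 0.40, adjusted p = 0.589).

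The sums of 3 other marker lists were lower in every ART-Normal liver than in both controls, as ACTA2, ACTB and ACTG1 were in TMM-scaled CPM. Most single markers of these lists did not follow their sum. All ART-Normal values lay below both controls in 3 of 10 hepatocyte, 1 of 10 erythroid and 0 of 5 endothelial markers tested. Over all genes tested in liver that share was 8.7%. Of the 10 erythroid markers tested, 7 had positive log2 fold changes. Hepatocyte markers summed to 35613 to 60013 CPM in ART-Normal, against 210945 (Control-AI 2) and 63626 CPM (Control-AI 4). Erythroid markers summed to 6011 to 6807 CPM, against 24831 (Control-AI 2) and 6961 CPM (Control-AI 4). Endothelial markers summed to 458 to 495 CPM, against 501 (Control-AI 2) and 498 CPM (Control-AI 4). The part of these markers, and of the smooth muscle markers, in the actin values of liver was not tested.

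**Figure D5:**
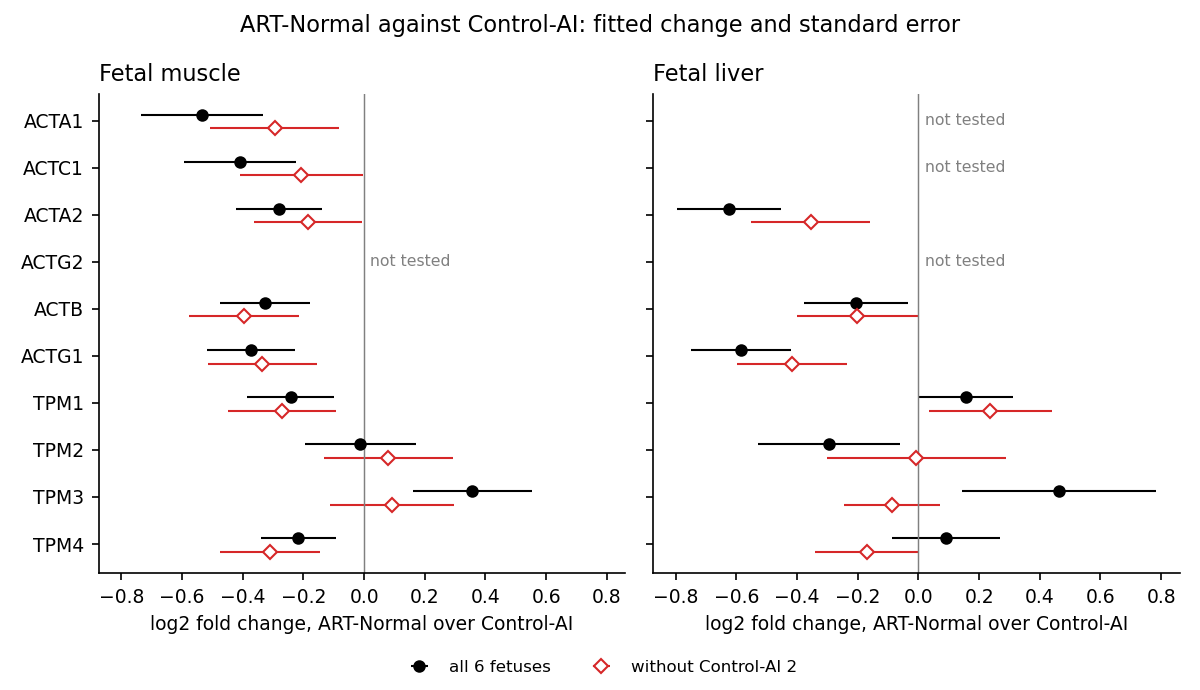
Fitted log2 change (ART-Normal against Control-AI, edgeR) of each member tested, in muscle (left) and liver (right), with bars of 1 standard error. Filled circles use all 6 fetuses and open diamonds leave out Control-AI 2. No value passes an adjusted p of 0.05. The actins lie left of 0 in both tissues, and TPM3 in liver lies at 0.46 with all fetuses and at -0.09 without Control-AI 2.

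Whether the conception groups differed by unlike amounts in muscle and liver was tested as an interaction in the fit over all 12 libraries. Of 12923 genes 0% were called by edgeR's quasi-likelihood test, with 711 genes at an unadjusted p under 0.05, and 37 called by DESeq2 and 98 by the likelihood ratio test. Of the members, ACTA1 had the largest value, 4.12 (SE 1.25, adjusted p = 0.703), followed by ACTC1 at 3.61 (SE 1.28, adjusted p = 0.794). Both rested on the 37 and 61 liver reads of Control-AI 2: without that fetus they were -0.26 (SE 1.64) and -1.58 (SE 1.69), and without Control-AI 4 they passed at 5.10 (adjusted p = 0.000554) and 4.58 (adjusted p = 0.00214). In the latter fit Control-AI 2, which stands apart, was the lone control and was assumed to vary as the ART-Normal libraries do. By the likelihood ratio test ACTA1 passed at 4.35 (adjusted p = 0.0427). The other 7 members tested had values between -0.41 (TPM1, SE 0.22) and 0.33 (ACTA2, SE 0.22).

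Other genes that build or turn over actin filaments were read from fixed lists. Of 12 genes tested that cap thin filaments or help to assemble them, 9 were higher in muscle, 2 were lower and 1 did not pass. Nebulin (NEB), the giant protein that runs along the thin filament, was at 2633 to 3579 CPM in muscle and at 0.3 to 1.15 CPM in 5 livers, with 11.3 CPM in the liver of Control-AI 2. The leiomodin LMOD2, which lengthens thin filaments, had 28.2 to 44.1 CPM in muscle and 0 reads in every liver library, and LMOD3 had 80.2 to 104 CPM and 0 reads in 5 livers, with 0.214 CPM in that of Control-AI 2. KLHL41, a kelch protein that stabilizes nebulin, had 1484 to 2032 CPM in muscle, 0.0461 to 0.385 CPM in 5 livers and 2.49 CPM in that of Control-AI 2. CAPZA1, a capping protein subunit of all cells, was lower in muscle (log2 fold change -0.70, SE 0.10, adjusted p = 2.41e-05 by edgeR). NEB, LMOD3 and KLHL41 were thus, as ACTA1 and ACTC1 were, highest in the liver of Control-AI 2.

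Of the 4 alpha-actinins, which cross-link actin filaments, ACTN2 (log2 fold change 6.02, SE 0.17) and ACTN3 (5.72, SE 0.40), the forms of the Z-disc, were higher in muscle. ACTN1 (-1.12, SE 0.10) and ACTN4 (-0.50, SE 0.12), the forms of non-muscle cells, were lower, and all 4 passed edgeR's test. Of 11 genes for monomer binding and filament turnover, 5 were higher in muscle and 4 lower. The largest changes were those of CAP2, a cyclase-associated protein (4.76, SE 0.16), the muscle cofilin CFL2 (3.07, SE 0.12) and the profilin PFN2 (2.84, SE 0.10), while CFL1 (-0.25, SE 0.11) and PFN1 (-0.55, SE 0.12) were lower. Within the cofilins and profilins the muscle or neural form was thus higher in muscle and the general form lower. TMSB10, a thymosin that binds actin monomers and the most abundant gene of that list in both tissues, did not pass (adjusted p = 0.958). Of 11 actin nucleators 2 were higher in muscle, among them the formin FMNL2 (1.80, SE 0.15), and 7 lower, among them the formin DIAPH1 (-2.14, SE 0.095) and the Arp2/3 subunit ARPC1B (-1.35, SE 0.13). ACTR2, another subunit and the most abundant nucleator in both tissues, did not pass (adjusted p = 0.589). SRF, the factor that drives many actin genes, and its cofactors MKL1 and MKL2 were higher in muscle by 1.14 (SE 0.13), 1.46 (SE 0.15) and 1.2 (SE 0.12).

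Between the conception groups no gene of these 5 lists passed the threshold of edgeR's test in either tissue, and 4 of 41 tests in muscle and 3 of 34 in liver had an unadjusted p under 0.05. Over all genes tested that share was 9.19% in muscle and 8.39% in liver, so these counts lie near the background. In muscle the medians of log2 fold change were -0.036 over the caps and assembly genes, -0.084 over the alpha-actinins, -0.024 over the turnover genes, -0.031 over the nucleators and 0.18 over SRF and its cofactors. MKL1 was at 154, 117, 206 and 168 CPM in ART-Normal muscle and 104 and 117 CPM in the controls, a log2 fold change of 0.53 (SE 0.20, adjusted p = 0.451 by edgeR). SRF itself went the other way, at -0.37 (SE 0.18, adjusted p = 0.576 by edgeR). It had 28.7, 38.8, 41.8 and 44.5 CPM in ART-Normal muscle, all below both controls (46.6 and 51.2 CPM), as did 6.37% of all genes tested there. MKL2 was at 0.18 (SE 0.15).

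The genes most like a member over the 6 libraries of a tissue were found by the root mean square difference of log2 CPM, each centred on its own mean, among genes of at least 20 CPM on average (8417 in muscle, 8304 in liver). In muscle the nearest to ACTA1 were LOC616200 (0.082), MYL9 (0.084) and POLR3A (0.094), and ACTC1 ranked 18th at 0.15. The nearest to ACTC1 were DNAJB5 (0.05), MYL1 (0.053), a fast myosin light chain, and MYADM (0.067). ACTG1 ranked 20th for ACTA2 (0.065), and the 3 nearest to ACTA2 were CSNK2B, GOSR2 and MCRS1 (0.029 to 0.039). RPL26L1, OSTC and PPIC were nearest to ACTB (0.031 to 0.048), and TIMM17B, SQSTM1 and ARMCX1 to TPM1 (0.038 to 0.047). In liver YIPF2, WSB2 and NAXE were nearest to ACTA2 (0.061 to 0.083), CMTM3, MRPS22 and ATP5MC3 to ACTB (0.036 to 0.045), and ZC3H11A, WDHD1 and ERO1A to TPM1 (0.025 to 0.029). These are likenesses over 6 libraries in a wide search, and in both tissues they weigh Control-AI 2 heavily for genes in which it stands apart.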

How the data were processed

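Gene counts of muscle and liver from 4 ART-Normal and 2 Control-AI fetuses were used, and kidney libraries in the labels were not analysed here. The authors deposited raw counts per gene, without normalization. Per the submitters' processing notes, FastQC 0.11.7, HISAT2 2.1.0, Cufflinks, SAMtools, featureCounts, edgeR 3.24.3 and ARS-UCD1.2 were used; the handling of strand and of multiply matching reads is not given in the sources used here. All 21048 listed lengths equal the gene span, so introns lay inside the counted regions. 9 gene identifiers stand on 2 lines and were kept as listed. Of 13 count columns for a tissue, 6 matched samples, and 14 columns in all were not used. The authors' deposited tables of their own comparisons (fold changes and p-values) were not used.

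The members and gene lists were chosen with earlier results of these data known. The two-sided quasi-likelihood test of edgeR 4.0.16 (R 4.3.3) was run after TMM on genes that reached 5 CPM in each library of 1 or more compared groups, with Benjamini-Hochberg adjustment at 0.05. SE is the log2 fold change divided by the square root of F. The fits were checked on simulated counts with 200 changed genes, for whether fitted changes followed those set. No control stood apart in those counts, and the rate of false calls was not checked. Tables and plots used Python 3.11.15, pandas 2.3.3, SciPy 1.17.1 and Matplotlib 3.10.9. Named genes are all members, the most abundant gene of each list of actin-binding genes per tissue and up to 3 with the largest change per comparison, genes overlapping a member, and the 3 nearest patterns. CFL1, PFN1, CNN1, TAGLN, MYH11, MYLK, ALB, NPPA, NPPB, NKX2-5, MYH6 and TNNI3 were chosen after their values were seen.

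Muscle and liver of 1 number come from the same fetus, which pairs them. Deviations from the group mean correlated between the tissues at r = 0.207, 0.038, 0.078 and 0.315 in ART-Normal 1 to 4 and at 0.356 in either control. The deviations of the controls mirror each other, so both must give the same value. That value rests on the difference between Control-AI 4 and Control-AI 2, which stands apart. Each fetus is 1 replicate. Alternatives were RLE and library size scaling, the likelihood ratio test, DESeq2 1.42.0, a minimum of 10 counts per library or no filter, ART-Normal 1 to 3, blocks, both tissues in 1 fit, leaving out each fetus, and shares per span.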

Additional observations from a re-analysis of the deposited data

Results flagged for a closer look

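Among the 4 ART-Normal fetuses, 40 sets of values (the CPM and the family share of each member in each tissue) were searched for a fetus far from the other 3 by Dixon's test, and chance flags about 1 in 20 such sets. In 3 sets a fetus stood apart. ACTC1 held 47.8% of actin reads in muscle of ART-Normal 2, against 43.4% to 43.8% in the other 3. ACTB held 16.7% of actin reads in muscle of ART-Normal 1, against 12.6% to 13.0%, and that library had the lowest summed skeletal muscle markers. ACTG1 was at 515 CPM in liver of ART-Normal 1, against 614 to 626 CPM. The part of the cell makeup in these values was not tested.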

How the results depend on the processing

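With 2 controls, 1 of which stands apart, counts of genes called moved widely. Of 488 member fold changes under an alternative, 467 kept direction and side of the threshold, which does not measure how far their size moved. In muscle ACTA1, ACTC1 and TPM3 moved toward 0 without Control-AI 2 and kept their sign. Of the 467, 121 were of muscle against liver, where most differences were large. In muscle (1 gene called) the likelihood ratio test called 120, DESeq2 106, ART-Normal 1 to 3 alone 0 and the replicate block on the label number 90; leaving out 1 fetus gave 0 to 1327, the highest without Control-AI 4. In liver (0 called) library size alone gave 6, the likelihood ratio test 89, DESeq2 56, ART-Normal 1 to 3 2, the block 6, both tissues in 1 fit 4 and leaving out 1 fetus 0 to 830, again highest without Control-AI 4, where Control-AI 2 is the lone control and is assumed to vary as ART-Normal does. For the interaction (0 called) they gave 98 (likelihood ratio), 37 (DESeq2) and 0 to 232. The label number is not a shared animal across the groups (r from -0.126 to 0.012), so its block pairs nothing; the block on the fetus changed the call of TPM4 between tissues and of no other member. TPM2 in muscle changed sign with no filter (0.000274), with the block (0.13) and over the fetuses left out (-0.109 to 0.0802), as did, over the fetuses left out, TPM3 (-0.0871 to 1.40) and TPM4 (-0.17 to 0.43) in liver and the interaction of ACTA1 (-0.26 to 5.10), ACTC1 (-1.58 to 4.92) and TPM3 (-0.75 to 0.16). With library size alone the interaction of ACTG1 was -0.0327, TPM4 passed between the tissues (0.37, adjusted p = 0.0332), and the median of all genes in liver moved to 0.21. Members below every control in liver went from 3, which had to stay below, to 5 without Control-AI 2. Divided by gene span, mean shares moved in muscle to 32.3% for ACTA1, 32.6% for ACTC1, 0.31% for ACTA2, 0.00865% for ACTG2 and 19.6% for ACTG1, and to 7.27%, 81.9%, 8.04% and 2.82% for TPM1 to TPM4. In liver they moved to 0.11% for ACTA2, 0.00797% for ACTG2, 35.5% for ACTG1 and 5.67% for TPM2. ACTC1 came to 50.3% of both alpha-actins. Shares by transcript or coding length were not run, since no such lengths were used here. Causes of these changes were not tested beyond what each alternative leaves out.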
